A study of Mus musculus with 6 samples.

Results

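Transcripts of 10 genes tied to the fetal liver and to liver tumours were followed in mouse livers that received a Cre virus against Vmp1. They were alpha-fetoprotein (Afp), H19, Igf2, Gpc3, Dlk1, Igf2bp3 and Tff3, with Zbtb20, Zhx2 and Zfhx3 as known or proposed repressors of Afp. The members were taken by symbol from a table of 55536 genes, and each symbol matched 1 row. They were picked with results of this same comparison known, so their differences are described here and given no test of their own.

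All 6 liver samples came from C57BL/6 mice of 8 to 10 weeks whose Vmp1 alleles were floxed, so that Cre can cut out the stretch between the loxP sites. Both groups were given AAV8, an adeno-associated virus, into a vein, with the hepatocyte-active TBG promoter, for 2 weeks. The virus was empty in the 3 controls (WT, AAV8-TBG-null) and carried Cre in the 3 hepatocyte-specific knockout samples (H-VMP1 KO, AAV8-TBG-cre). The promoter leaves cells other than hepatocytes outside the intended deletion, and no label states that each library is a different animal. P-values measure spread between libraries only, and this spread may be technical.

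Alpha-fetoprotein is the main plasma protein of the fetus, made by the yolk sac and fetal hepatocytes, and its gene lies beside the related albumin gene. It is shut down after birth and returns in liver regeneration and in hepatocellular carcinoma. H19 is an imprinted non-coding RNA transcribed from the maternal chromosome, next to the paternally expressed growth factor gene Igf2, with which it shares enhancers. Both are abundant in fetal liver and fall after birth. ZHX2, ZBTB20 and ZFHX3 are zinc-finger or homeobox transcription factors, and loss of ZHX2 or ZBTB20 leaves Afp on in adult mouse liver.

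Expression is given as TPM, a transcript abundance corrected for length and scaled to the same total in every library, so levels can be compared between genes. No read number is kept, so depth and detection limits are unknown, and values were deposited in steps of 0.01 TPM. Vmp1 itself stood at 70.7, 96.5 and 88.6 TPM in the controls, against 157, 136 and 137 TPM in the libraries labelled knockout, a log2 fold change of 0.75 as deposited and -0.18 with the scaling described below. The gene-level value shows no clear loss of Vmp1 RNA, which is why these libraries are called labelled knockout below. It does not check the deletion, since exons left in place still count. The 100 most abundant genes held 61.6 to 66.4% of the TPM in controls and 46.0 to 49.0% in the labelled knockout, and the TPM of every gene is relative to this composition. The median log2 fold change of the 12796 tested genes (at least 1 TPM in at least 3 libraries) was 0.77 as deposited. Median-of-ratios scaling, which places the middle gene near no change, lowered fold changes by a median of 0.83. Values are as deposited unless the scaling is named.

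The Afp promoter is shown because Afp had the largest log2 fold change of the 10 genes, and the albumin (Alb) promoter because it is the related neighbour that went the other way. Each run holds the 250 bases before the RefSeq start (GRCm38.p6, plus strand), at chr5:90490464-90490713 for Afp and chr5:90460620-90460869 for Alb. Capitals mark matches to TATAAA, a form of the TATA box, searched on both strands.
Afp promoter: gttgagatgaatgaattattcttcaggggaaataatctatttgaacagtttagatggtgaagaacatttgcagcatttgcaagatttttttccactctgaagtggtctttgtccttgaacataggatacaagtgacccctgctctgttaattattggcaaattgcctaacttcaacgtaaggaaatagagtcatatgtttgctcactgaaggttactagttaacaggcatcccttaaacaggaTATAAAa
Alb promoter: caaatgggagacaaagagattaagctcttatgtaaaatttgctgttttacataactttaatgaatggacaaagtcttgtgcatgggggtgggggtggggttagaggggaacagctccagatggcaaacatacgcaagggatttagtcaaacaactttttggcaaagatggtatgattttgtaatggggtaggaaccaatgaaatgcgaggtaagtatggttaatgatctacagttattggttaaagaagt
The Afp window held TATAAA at positions -7 to -2, counted from the RefSeq start. GENCODE places the Afp start 23 bases further on. The Alb window held no match, but GENCODE starts Alb at 90460897, past the end of the window. The bases between the window and that start were not searched. Over 32851 promoter windows of this length, 12.4% held TATAAA. A match or its absence describes only the letters in this window.

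Afp (ENSMUSG00000054932, GRCm38 chromosome 5, 90490737 to 90508907, plus strand, protein-coding) was near 0 in the controls, at 0.35, 0.59 and 0.68 TPM. In the labelled knockout it stood at 34.6, 55.4 and 47.3 TPM. All 3 labelled knockout libraries lay far above all controls, and none of the 3 stood apart from the others. The group means were 0.54 ± 0.171 and 45.8 ± 10.5 TPM (SD, n = 3 each), a ratio of 84.7 in the deposited values, or 44.1 with median-of-ratios scaling. The log2 fold change on log2(TPM + 1), labelled knockout minus control, was 4.90 ± 0.17 (SE), and 43 of the 12796 tested genes had a larger one. The added 1 TPM compresses low values, and with 0.1 TPM in its place the log2 fold change was 6.17. An antisense gene, Gm43449, overlaps Afp and spanned 0.35 to 0.80 TPM in the controls, a level like that of Afp there, and 0.31 to 0.49 TPM in the labelled knockout. In whole liver, fewer cells of a type and less RNA per cell cannot be told apart.

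H19 (ENSMUSG00000000031, chromosome 7, 142575529 to 142578143, minus strand, annotated as lincRNA) was at 0.03, 0.06 and 0.07 TPM in the controls. In the labelled knockout it was at 3.82, 32.0 and 2.76 TPM. Every labelled knockout library was above every control, but replicate 2 stood 9.72 times above the mean of the other 2. The group means were 0.0533 ± 0.0208 and 12.9 ± 16.6 TPM, a ratio of 241 as deposited and 129 with the other scaling, and the SD exceeded the mean in the labelled knockout. The log2 fold change was 3.0 ± 0.92, with a larger SE than nearly all genes (18 of 12796 had one at least as large, H19 included). Without labelled knockout replicate 2, and with genes at 1 TPM in at least 2 libraries admitted, it was 2.02 ± 0.12. The ratio of mean TPM without that library was 61.7. The H19 call was kept without labelled knockout replicate 2 and lost without control replicate 1 or 3.

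H19 carries the hairpin of miR-675 in an exon, and its mature products are shown because an H19 transcript can be their precursor. The coordinates are GRCm38.p6, minus strand, chr7:142577112-142577133 for the 5p and chr7:142577078-142577099 for the 3p product, and capitals mark the seed (bases 2 to 8).
mmu-miR-675-5p: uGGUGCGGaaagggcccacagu
mmu-miR-675-3p: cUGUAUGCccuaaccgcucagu
The seeds of the pair differ. The table lists the Mir675 gene at 0 TPM in all 6 libraries, and the labels do not describe a small RNA library, so the mature products were not measured.

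Igf2 (chromosome 7, 142650766 to 142666816, minus strand), the growth factor gene 73 kb from H19, stayed near 0. It was at 0.18, 0.24 and 0.11 TPM in the controls, against 0.25, 0.73 and 0.30 TPM in the labelled knockout. As deposited the groups did not overlap, by 0.24 against 0.25 TPM, and they overlapped after median-of-ratios scaling. In the library where H19 reached 32.0 TPM, Igf2 was at 0.73 TPM. Igf2 was under 1 TPM in every library and was not tested.

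Gpc3 (chromosome X, 52272426 to 52613950, minus strand) encodes glypican 3, a cell-surface proteoglycan used as a marker of hepatocellular carcinoma. It was at 0.42, 0.19 and 0.40 TPM in the controls, against 0.83, 0.67 and 0.69 TPM in the labelled knockout. The groups did not overlap as deposited, with a ratio of means of 2.17, and overlapped after median-of-ratios scaling, where the ratio was 1.11. Dlk1 (chromosome 12, 109452823 to 109463336, plus strand), a membrane protein of hepatoblasts, was listed at 0 in all controls, against 0.04, 0.07 and 0 TPM in the labelled knockout. Igf2bp3 (chromosome 6, 49085223 to 49214957, minus strand), an RNA-binding protein of fetal and tumour cells, was at 0, 0.01 and 0.05 TPM and at 0.02, 0.12 and 0.02 TPM. For Dlk1 and Igf2bp3 the groups overlapped, and at these levels the steps of 0.01 TPM are a large part of each value. Malsu1 overlaps Igf2bp3 on the opposite strand and reached 26.75 TPM.

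Tff3 (ENSMUSG00000024029, chromosome 17, 31125306 to 31129646, minus strand) encodes a small secreted trefoil peptide made by mucous cells and by bile duct cells. It was at 2.46, 6.75 and 5.26 TPM in the controls, against 8.26, 64.9 and 5.20 TPM in the labelled knockout. Replicate 2 alone stood apart, at 9.64 times the mean of the other labelled knockout libraries, and the groups overlapped because replicate 3 lay below 2 controls. The log2 fold change was 1.5 ± 1.03, or 0.69 with median-of-ratios scaling, and without replicate 2 it was 0.46 ± 0.43.

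**Figure D1:**
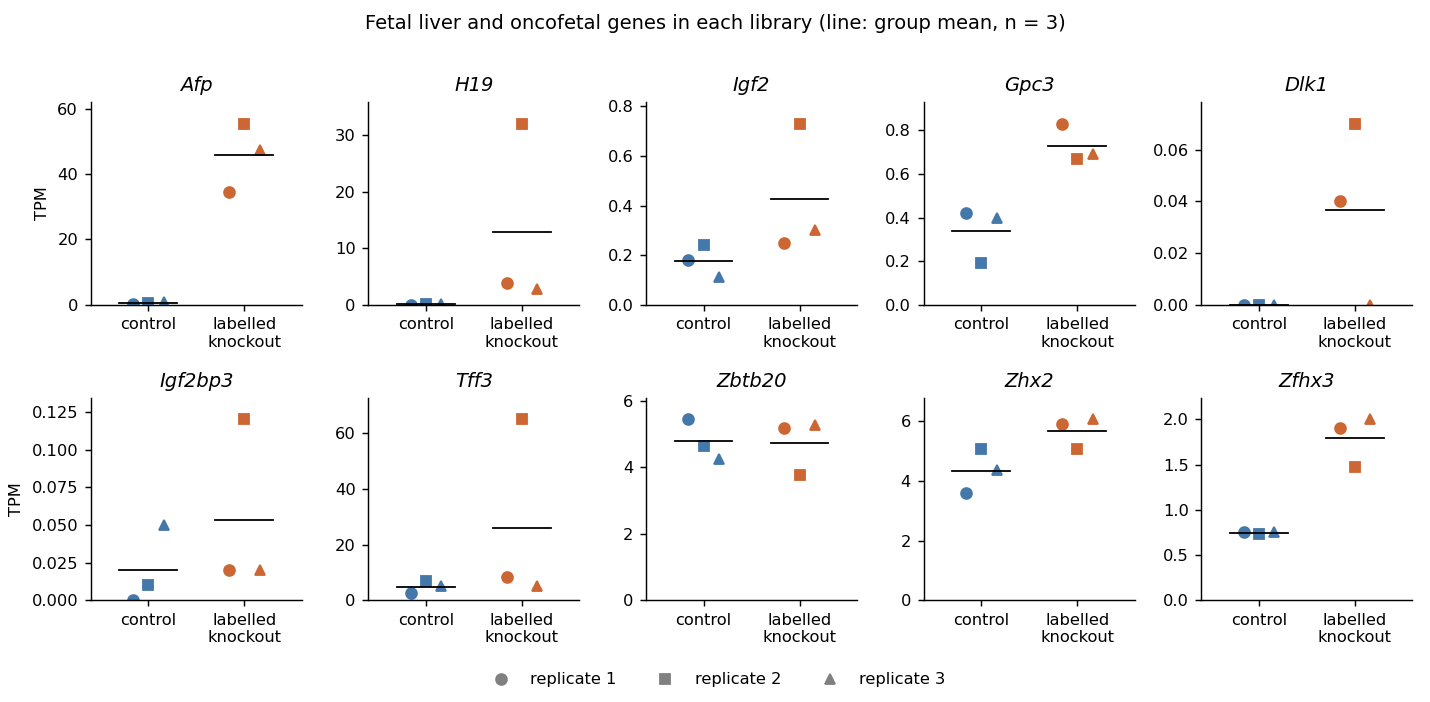
TPM of the 10 genes in each library, on linear axes that start at 0 and differ between panels, with controls in blue, labelled knockout in orange, 1 symbol per replicate number and a line at each group mean (n = 3). Afp was 34.6 to 55.4 TPM in all 3 labelled knockout libraries, while H19 and Tff3 reached 32.0 and 64.9 TPM in replicate 2 alone.

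None of the 3 repressor genes was called lower as deposited. For Zfhx3 the filter fixed this, since it passed only through the labelled knockout. Zbtb20 (chromosome 16, 42875881 to 43642602, plus strand), needed to silence Afp after birth, was at 5.44, 4.65 and 4.25 TPM in the controls, against 5.18, 3.78 and 5.27 TPM in the labelled knockout. Its log2 fold change was -0.01 ± 0.14 and the groups overlapped. Zhx2 (chromosome 15, 57694665 to 57839832, plus strand), the gene behind hereditary persistence of alpha-fetoprotein in mice, was at 3.61, 5.06 and 4.36 TPM and at 5.89, 5.08 and 6.06 TPM. The gap between its groups was 5.06 against 5.08 TPM, and its log2 fold change was 0.33 ± 0.13. Zfhx3 (chromosome 8, 107942644 to 108961630, plus strand), which encodes ATBF1, a factor described to bind the Afp enhancer, was at 0.75, 0.73 and 0.76 TPM and at 1.91, 1.47 and 2.00 TPM. Its groups did not overlap, and its log2 fold change was 0.67 ± 0.11. As deposited the log2 fold changes of Zbtb20, Zhx2 and Zfhx3 were below the 0.77 of the median gene. For Zfhx3 this turned with 0.1 TPM added in place of 1 (1.15 against a median of 0.91) and with median-of-ratios scaling (0.17 against -0.01).

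Median-of-ratios scaling turned Zhx2 to -0.46 and Zbtb20 to -0.79, and left Zfhx3 at 0.17. Whether the repressors were lower, level or higher therefore depended on the scaling, while Afp (4.26 ± 0.20) and H19 (2.59 ± 0.80) stayed above 0 with both. Afp, H19 and Zfhx3 passed the filter only through the labelled knockout, and so had to be higher there as deposited. Other annotated genes overlap Zbtb20, and 1 on the same strand (BC002163) reached 27.6 TPM, so reads of Zbtb20 are less certain.

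Of the 10 genes, 6 passed the filter, and Afp, H19 and Zfhx3 passed only through the labelled knockout. As deposited 4 of the 6 were called higher (Afp, H19, Zhx2 and Zfhx3, limma with Benjamini-Hochberg adjustment), beside 74.5% of all tested genes, and 0 lower, beside 10.7%. With median-of-ratios scaling 2 were called higher (Afp and H19), beside 35.1% of all tested genes, and 2 lower (Zbtb20 and Zhx2), beside 36.6%. Leaving out single controls changed these counts. Without control replicate 1, and likewise without control replicate 3, the calls left were Afp and Zfhx3. As deposited the labelled knockout lay wholly above the controls in 6 of the 10, beside 48.5% of the 28532 genes above 0 in any library. After median-of-ratios scaling it lay above in 2, beside 26.3%, and below in 2 (Zbtb20 and Zhx2), beside 22.3%. Since the members were chosen on this contrast, nothing is read from these counts.

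**Figure D2:**
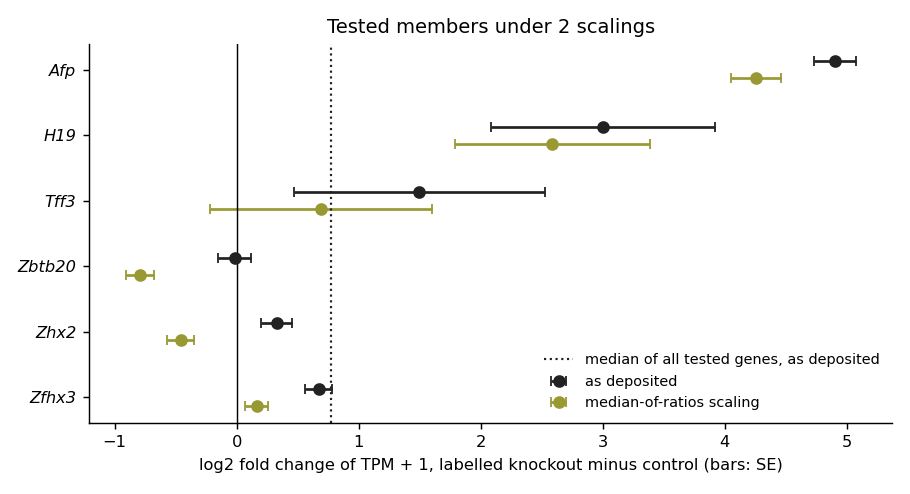
Log2 fold change of TPM + 1 (labelled knockout minus control, bars are SE) for the 6 tested members, as deposited in black and with median-of-ratios scaling in olive, beside the median of all tested genes (0.77, dotted). Afp and H19 stay above 2 with both scalings, and Zhx2 moves from 0.33 to -0.46.

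In order of level, Tff3 (4.82 ± 2.18 TPM), Zbtb20 (4.78 ± 0.606) and Zhx2 (4.34 ± 0.725) led in the controls and did not differ beyond their spread. The other 7 members were under 1 TPM in every control. In the labelled knockout Afp had the highest mean, although Tff3 was above it in replicate 2 (64.9 against 55.4 TPM), followed by Tff3 (26.1 ± 33.6 TPM) and H19, with Tff3 above H19 in each of the 3 libraries and both SDs larger than their means. Without replicate 2 the mean of H19, 3.29 TPM, lay below that of Zhx2, 5.98 TPM. Zhx2 (5.68 ± 0.524) and Zbtb20 (4.74 ± 0.835) followed, and their libraries overlapped. Zfhx3 (1.79 ± 0.284), Gpc3 (0.73 ± 0.0872), Igf2 (0.427 ± 0.264), Igf2bp3 and Dlk1 came last.

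Of the 3 labelled knockout libraries, replicate 2 was the highest for 6 members (Afp, H19, Igf2, Dlk1, Igf2bp3 and Tff3) and the lowest for the other 4 (Gpc3, Zbtb20, Zhx2 and Zfhx3). Among all tested genes it was highest for 25.1% and lowest for 52.7%, so either position is common. For Gpc3 it lay only just below replicate 3, and for Afp replicate 1 lay furthest from the others. Tested genes at 5 TPM or more that stood at least 5-fold above both other labelled knockout libraries numbered 4 in replicate 2 (H19, Tff3, Gm14440 and Gm44805) and 0 in replicates 1 and 3. This split was looked at after the H19 and Tff3 values were seen. Some progenitor genes were also highest there. The stem-cell surface marker gene Prom1 was at 3.40, 15.01 and 3.03 TPM, 4.67 times the mean of the other libraries, and the transcription factor gene Sox4 at 3.82, 8.82 and 3.05 TPM. Of 20 tested genes on a list of other fetal and tumour markers, 4 were at least 2-fold above (Prom1, Sox4, Spink1 and Ccnb1), beside 1.59% of all tested genes. On the same list Igf2bp2 and Sox9 were lower in replicate 2, at 4.88, 2.25 and 3.68 TPM and at 5.56, 2.71 and 3.11 TPM. Spp1, an osteopontin gene on the list of bile duct markers, was also highest in replicate 2, at 164 TPM against 124 and 116. The other bile duct markers summed to 25.3, 24.4 and 18.3 TPM in replicates 1, 2 and 3, so they were not highest there. Summed macrophage markers were lowest in replicate 2, at 768 against 983 and 1097 TPM, as were endothelial markers, at 100 against 125 and 135 TPM. Stellate markers were highest there, at 331 against 297 and 287 TPM. Markers of neighbouring tissue (adrenal or pancreas) other than Cela1 summed to 4.35, 13.9 and 5.04 TPM in replicates 1, 2 and 3. In the controls they summed to 12.8, 9.30 and 7.30 TPM. Cela1 itself was lowest in replicate 2, at 20.4 against 23.0 and 25.5 TPM. The part of these in the values of H19 and Tff3 was not tested.

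**Figure D3:**
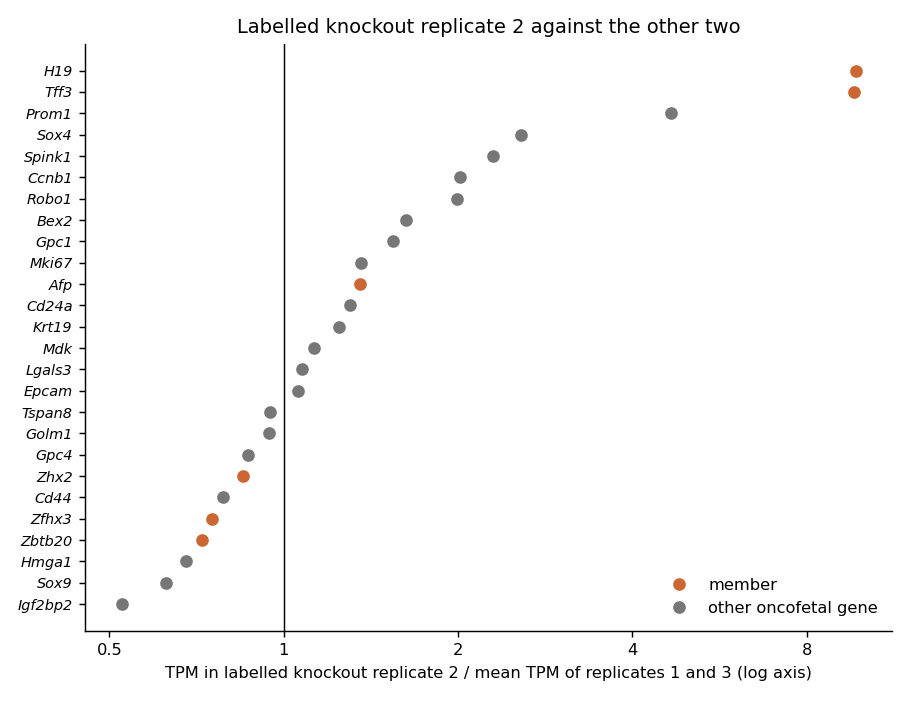
TPM in labelled knockout replicate 2 divided by the mean of replicates 1 and 3, on a log axis, for the tested members (orange) and for tested genes of the list of other oncofetal genes (grey). H19 (9.72) and Tff3 (9.64) stand furthest to the right, Prom1 follows at 4.67, and Afp lies at 1.35.

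The neighbours of Afp on chromosome 5 that belong to its gene family were lower, not higher. The albumin gene, 14 kb before Afp, fell from 29032 ± 6631 to 11605 ± 1651 TPM (log2 fold change -1.31 ± 0.19, limma adjusted p = 1.4e-04). Afamin (Afm), 10 kb after Afp, fell from 107 ± 17.8 to 26.9 ± 8.69 TPM (-1.99 ± 0.22, adjusted p = 7.0e-05). The predicted gene 5830473C10Rik, 52 kb away, fell by 1.84 on the log2 scale. Gc, the vitamin D-binding protein gene of the same family, was at 4250 ± 319 and 4244 ± 131 TPM. It was called lower with median-of-ratios scaling (-0.94) and higher with quantile normalization (0.61), so its direction depended on the scaling. Further out, Ankrd17 (124 kb) was higher by 0.95 as deposited, which became 0.08 with median-of-ratios scaling, and Rassf6 (94 kb) rose by 1.51.

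Around H19 the tested protein-coding neighbours were all called higher as deposited, beside 74.5% of all tested genes. The lysosomal protease gene Ctsd rose by 2.6, the leukocyte gene Lsp1 by 3.73 and the mitochondrial ribosomal gene Mrpl23, 35 kb away, by 1.5 on the log2 scale. The predicted gene Gm49369, which overlaps Ctsd on the same strand, rose by 0.95. Ctsd, Lsp1 and Mrpl23 were also called higher with median-of-ratios scaling, beside 35.1% of all tested genes. Lsp1 was at 30.8, 43.0 and 29.5 TPM in the labelled knockout, so its replicate 2 was the highest as well, by a smaller factor than for H19. Macrophage markers were called higher in the labelled knockout too, 8 of 8, beside the same 74.5% as deposited.

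**Figure D4:**
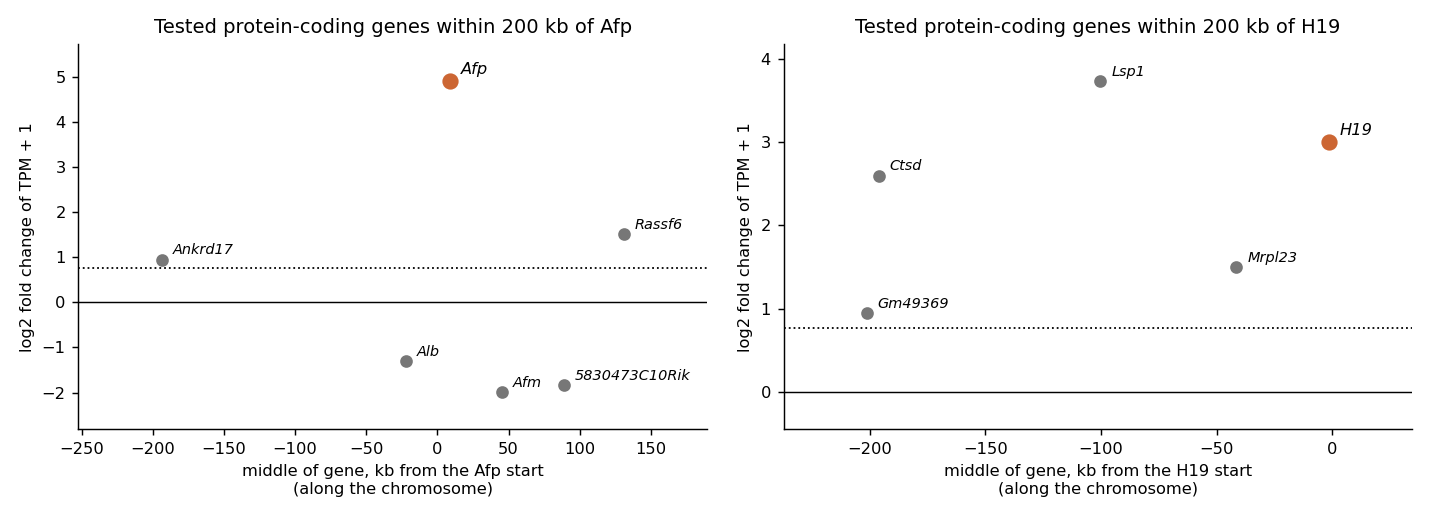
Log2 fold change of tested protein-coding genes (grey) within 200 kb of Afp (left) and H19 (right), both in orange, against the distance of the middle of each gene from the start of Afp or H19 in kb, with the median of all tested genes dotted (0.77). Afp (4.90) lies above Alb (-1.31) and Afm (-1.99), while the tested neighbours of H19 all lie above 0.

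Genes whose pattern over the 6 libraries was most like that of Afp were Dynlt1f, Magohb, Edem2, Gm2436 and Med4, with Pearson r of log2(TPM + 1) of 0.999 or more. They were picked from 8423 genes with a mean of at least 5 TPM. For H19 they were Pigp, Aldh1b1, Dbt, Gm14296 and Ptma, with r from 0.969 to 0.986. Aldh1b1, a mitochondrial aldehyde dehydrogenase gene, was at 18.9, 23.0 and 21.7 TPM in the controls, against 57.7, 152 and 60.2 TPM in the labelled knockout. With 6 points and a difference between the groups shared by most genes, these values are a description of the libraries.

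Of 17 tested transcription factor genes tied to Afp or liver identity, 2 rose, 4 fell and 11 did not pass the test as deposited, with a median log2 fold change of -0.01 against 0.77 over all genes. Among all tested genes 74.5% were called higher and 10.7% lower. Foxa2, a pioneer factor of liver and gut, rose from 8.58 ± 0.474 to 22.5 ± 1.76 TPM (1.29 ± 0.10, limma adjusted p = 1.9e-06, or 0.41 with median-of-ratios scaling). Trp53, whose product p53 can repress Afp, rose from 9.0 ± 1.91 to 31.8 ± 2.92 TPM (1.73 ± 0.15). Both were also called higher with median-of-ratios scaling. Cebpa, an activator of adult hepatocyte genes, fell from 116 ± 12.5 to 65.1 ± 6.89 TPM (-0.82 ± 0.12, adjusted p = 1.1e-04, or -1.76 with median-of-ratios scaling). Onecut1, a hepatocyte and bile duct factor, fell from 3.54 ± 0.0929 to 1.65 ± 0.378 TPM (-0.78 ± 0.12).

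Of the relatives of Zhx2, Zhx3 fell from 8.79 ± 0.931 to 5.69 ± 0.494 TPM (-0.55 ± 0.11, limma adjusted p = 0.0011), and Zhx1 was at 8.39 ± 0.301 and 8.33 ± 0.642 TPM. Hnf4a was at 137 ± 12.8 and 124 ± 7.64 TPM. With median-of-ratios scaling all 17 were called, 15 of them lower, beside 35.1% of all tested genes called higher and 36.6% lower.

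Genes reported to respond to ZHX2 in liver, other than the members, were all called, 3 higher and 5 lower of 8, with the same split under both scalings. The shares over all tested genes were 74.5% higher and 10.7% lower as deposited, and 35.1% and 36.6% with median-of-ratios scaling. The steroid hydroxylase gene Cyp2a4 rose by 9.94 and the fatty acid transporter gene Cd36 by 4.37 on the log2 scale. The elongase gene Elovl3 fell from 95.9 ± 33.7 to 0.203 ± 0.137 TPM (-6.28 ± 0.23) and the major urinary protein gene Mup3 fell by 4.89. Cyp2a4 and Mup3 have near-identical relatives, so reads may be shared among them. This list was drawn up with earlier results on Cyp2a4, Cd36 and the Mup family known.

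Imprinted genes other than the members moved in both directions. Of 23, 12 were tested, 8 rose and 4 fell, with a median of 0.97 against 0.77 over all genes. Of all tested genes 74.5% were called higher and 10.7% lower. Under both scalings 6 rose and 4 fell, beside 35.1% of all tested genes higher and 36.6% lower with median-of-ratios scaling. The filter let in 5 of the 12 through the labelled knockout only (Phlda2, Mest, Airn, Plagl1 and Grb10). These 5 had to be higher there as deposited. Without labelled knockout replicate 1, 2 or 3, 7 genes were tested and 4, 7 and 4 called. Phlda2, a placental growth regulator, rose from 0.21 ± 0.106 to 5.53 ± 1.36 TPM (2.41 ± 0.16, limma adjusted p = 8.9e-07). Mest rose by 1.49 and Airn, the non-coding RNA antisense to Igf2r, by 1.44. Igf2r, the receptor that clears IGF2, rose from 5.08 ± 0.325 to 13.6 ± 1.90 TPM (1.26 ± 0.12, or 0.42 with median-of-ratios scaling). Airn and Igf2r overlap, and the strand setting is not given in the sources used here. Meg3, the maternally expressed non-coding RNA beside Dlk1, fell from 10.7, 3.84 and 9.27 TPM to 1.68, 3.02 and 1.83 TPM (-1.42 ± 0.37, adjusted p = 0.011). Rian and Mirg lie in the same cluster and were named after their values were seen. Rian fell by 0.93, and Mirg was at 0.40, 0.66 and 0.80 TPM against 0.14, 0.27 and 0.06 TPM. The Meg3 call was lost without labelled knockout replicate 1 or 3 (limma adjusted p = 0.060 and 0.064), and the Rian call without any single library other than control replicate 2 or labelled knockout replicate 2.

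Of 13 tested genes of the IGF system, 8 rose and 4 fell, with a median of 0.45 against 0.77 over all genes. Of all tested genes 74.5% were called higher and 10.7% lower. With both scalings 5 rose and 4 fell, beside 35.1% of all genes called higher and 36.6% lower with median-of-ratios scaling. Igf1, the main postnatal ligand, fell from 462 ± 27.4 to 239 ± 46.8 TPM (-0.97 ± 0.14, limma adjusted p = 1.4e-04). Igfbp2 fell from 331 ± 69.0 to 40.6 ± 26.8 TPM (-3.16 ± 0.46), and Igfbp1, a stress-inducible binding protein, rose from 106 ± 46.6 to 622 ± 121 TPM (2.64 ± 0.40, adjusted p = 0.0012). Igfbp6 and Igfbp7 rose by 2.29 and 2.01. Igf1r, named after its values were seen, was at 0.11 to 0.12 TPM in the controls and 0.37 to 0.44 TPM in the labelled knockout. Insr was higher by 0.29 as deposited, a call lost without control replicate 1 or 3 or labelled knockout replicate 1 or 3, and stood at -0.60 under median-of-ratios scaling.

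Of 35 other fetal, progenitor and tumour marker genes in the table, 20 were tested, 19 rose and 0 fell, and 17 rose with both scalings. Their median was 1.84 against 0.77 over all genes, of which 74.5% were called higher and 10.7% lower. Under median-of-ratios scaling the shares of all tested genes were 35.1% higher and 36.6% lower. However, 14 of the 20 passed the filter only through the labelled knockout and so had to be higher there. Without any 1 of the labelled knockout libraries 6 were tested and 5 rose. Galectin-3 gene Lgals3, also abundant in macrophages, rose from 2.45 ± 0.721 to 205 ± 40.5 TPM (5.90 ± 0.19, limma adjusted p = 5.9e-08). The cell adhesion gene Cd44 rose by 3.48, Bex2 by 3.23 and the trypsin inhibitor gene Spink1 by 2.57. Epcam, Sox9 and Krt19, markers of bile duct and progenitor cells, rose to 2.28 ± 0.248, 3.79 ± 1.54 and 2.10 ± 0.506 TPM from under 1 TPM.

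Paralogs of the members were also measured, and the glypican, trefoil and Dlk relatives were named after their values were seen. Igf2bp2 rose from 0.353 ± 0.0351 to 3.60 ± 1.32 TPM (1.72 ± 0.19, limma adjusted p = 3.9e-05). It passed the filter only through the labelled knockout, and so had to be higher there. Igf2bp1 did not exceed 0.01 TPM in any library and was not tested. The most abundant glypican gene was Gpc4, at 16.1 ± 1.42 and 28.4 ± 2.81 TPM, higher by 0.78 as deposited and at -0.12 with median-of-ratios scaling. Gpc1 was at 2.12 ± 0.960 and 2.36 ± 0.631 TPM, and Gpc5 was listed at 0 throughout. Trefoil genes Tff1 and Tff2 stayed under 1 TPM in every library, replicate 2 included. The pluripotency regulator gene Lin28b and the Dlk1 relative Dlk2 were listed at 0 in all 6 libraries.

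**Figure D5:**
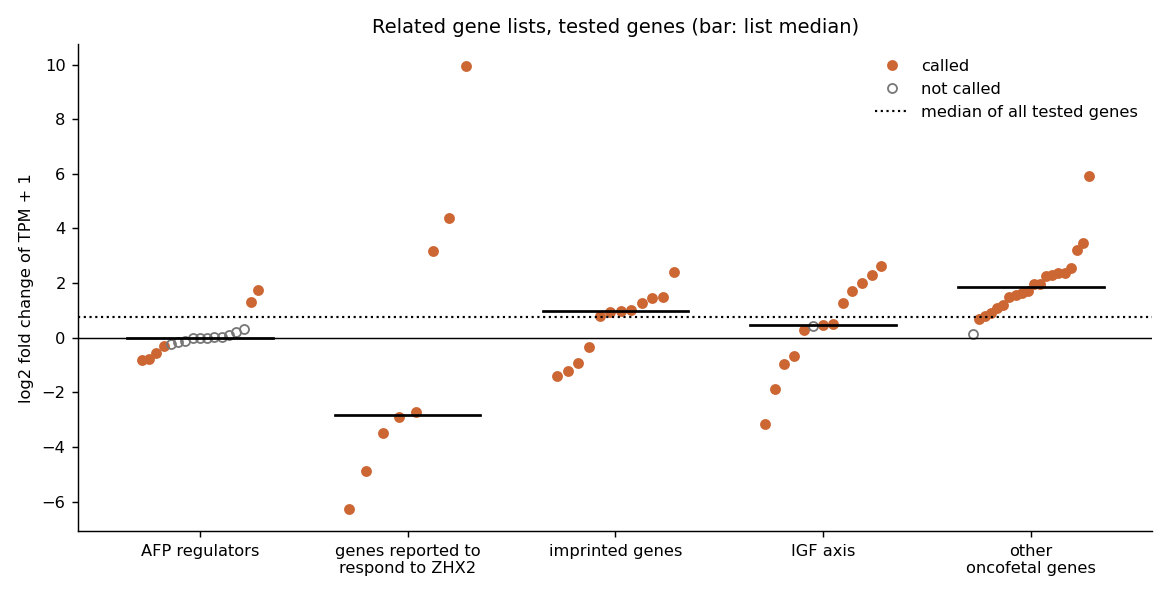
Log2 fold change of TPM + 1 for the tested genes of 5 related lists, filled where called at an adjusted p under 0.05, with a bar at each list median and the median of all tested genes dotted (0.77). The list medians run from -2.82 for genes reported to respond to ZHX2 to 1.84 for other oncofetal genes.

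Cell type markers moved with the groups as well, beside 74.5% of all tested genes called higher and 10.7% lower as deposited. With median-of-ratios scaling these shares were 35.1% and 36.6%. Summed hepatocyte markers (13 genes) spanned 92953 to 118389 TPM in controls and 43643 to 47080 TPM in the labelled knockout, with 10 of 13 lower. Bile duct markers spanned 25.9 to 38.7 and 134 to 188 TPM, most of it Spp1, and without Spp1 8.87 to 11.6 and 18.3 to 25.3 TPM. Of the 6 tested 5 were higher, and with median-of-ratios scaling 5 were higher and 1 lower. Stellate markers spanned 51.4 to 54.3 and 287 to 331 TPM with 10 of 10 higher, endothelial markers 36.8 to 42.9 and 100 to 135 TPM with 7 of 7 higher, and macrophage markers 74.6 to 127 and 768 to 1097 TPM with 8 of 8 higher. With median-of-ratios scaling 10 of 10 stellate, 5 of 7 endothelial and 8 of 8 macrophage markers were called higher. All 13 hepatocyte markers were called lower with that scaling. Goblet cell markers, relevant to Tff3, summed to at most 0.42 TPM, with Agr2 at 0 throughout. Mesothelial markers summed to at most 1.70 TPM. The part of these shifts in the member values was not tested.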

How the data were processed

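RNA of mouse liver was measured in 6 libraries, 3 controls and 3 labelled VMP1 knockout, grouped by their titles. The authors deposited 1 table of TPM values with a column per library, and 0 columns were left unmapped. STAR 2.6.1c, RSEM, edgeR and the mm10 build are listed, without their roles, per the submitters' processing notes. The strand setting is not given in the sources used here and TPM keeps no depth, so no count model or counting interval was used.

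Genes reaching 1 TPM in 3 or more libraries were fitted as log2(TPM + 1) with limma 3.58.1 (R 4.3.3, intensity trend, robust variances), without a replicate block, and called at a Benjamini-Hochberg adjusted p under 0.05 over all 12796 genes. The procedure was also run on simulated data. No result of that run is given here, and nothing is read from it. All identifiers matched GENCODE M21 (GRCm38, the assembly also called mm10) by identifier and symbol. Promoter and miRNA sequences are from RefSeq (GRCm38.p6), and 7 of the 10 members had a promoter entry. Python 3.11.15 and matplotlib 3.10.9 were used for summaries and figures.

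Members and lists were chosen with earlier results of these data known. Named genes were the members, up to 4 called genes of each list with the largest change, the albumin neighbours and a short set named whatever their result. The 5 genes most like Afp and H19 were added. Neighbours were taken by position after the values were seen. Alternatives changed the scaling, pseudocount, filter, variance model and pairing and left out each library. A filter of 2 libraries with a knockout library left out was added after seeing the data.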

Additional observations from a re-analysis of the deposited data

How the results depend on the processing

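Afp kept its direction and its call under each alternative that could test it, with log2 fold changes from 4.12 to 6.17. However, Afp and H19 passed the filter only through the labelled knockout. Filtered fits of the deposited values could therefore give no other direction for these genes. With no filter the log2 fold changes were 4.90 for Afp and 3.0 for H19. Median-of-ratios scaling ended the Zfhx3 call (0.17), and quantile normalization turned it (-0.18). Zhx2 turned under these scalings (-0.46 and -0.49), and its call was lost with no filter (0.33), without labelled knockout replicate 1 (0.30) or 3 (0.29) and without control replicate 1 or 3. Zbtb20 became a lower call under these scalings (-0.79 and -0.84). Over libraries left out Zbtb20 ranged from -0.084 to 0.11, Zhx2 from 0.23 to 0.42 and H19 from 2.02 (without labelled knockout replicate 2) to 3.58. H19 without a control was 2.98 to 3.01, and without a labelled knockout library it was tested at the filter of 2 libraries only. The H19 call was lost without control replicate 1 or 3 (adjusted p = 0.092 and 0.056) and, at the filter of 2 libraries, without labelled knockout replicate 1 (3.40, adjusted p = 0.057).

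Same-numbered libraries did not deviate together (r of 0.076, 0.040 and -0.115), and differently numbered ones gave r from -0.143 to 0.098. These values cannot decide whether the numbers pair samples, and the labels do not say. A replicate block left 10760 genes called and ended the H19 call (3.0, adjusted p = 0.078).

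Median-of-ratios scaling turned Gc (-0.94), Vmp1 (-0.18), Gpc4 (-0.12), Gpc1 (-0.48) and Insr (-0.60), and quantile normalization turned Gpc1 (-0.69) and Insr (-0.49) and made Gc a higher call (0.61), against a lower call with median-of-ratios scaling. Over libraries left out Gc ranged from -0.034 to 0.061, Zhx1 from -0.042 to 0.048 and Gpc1 from -0.14 to 0.33, crossing 0.

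Across all genes 10906 were called as deposited (87.4% higher), 9185 with median-of-ratios scaling (48.9% higher) and 9054 with quantile normalization (49.9% higher). Leaving out single libraries gave 0 to 4 called members, 4 to 12 imprinted genes and 5 to 19 other oncofetal genes. Without a labelled knockout library 3 members could be tested, because genes under 1 TPM in the controls then fail the filter. With the filter of 2 libraries, chosen after seeing the data, 2, 4 and 3 members were called without labelled knockout replicate 1, 2 and 3. Among AFP regulators 17 were called with either scaling, against 6 as deposited. The cause of these changes was not tested. TPM keeps no depth, so no detection limit can be given for the genes near 0.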
